A study of Saccharomyces cerevisiae with 4 samples.

Results

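The SUN family of the yeast Saccharomyces cerevisiae was followed through 4 genes, UTH1 (YKR042W), SIM1 (YIL123W), NCA3 (YJL116C) and SUN4 (YNL066W), which were taken by the ORF name given for each spot. They are 4 of the 6063 genes read on at least 1 array, and all 4 belong to the 4992 genes read on every array. In E4, DY1457 cells grown in LZM with 3 μM added zinc were compared with DY1457 cells grown in LZM with 3000 μM added zinc. In E3, DY1457 cells expressing Zap1TC, an allele of the zinc-responsive activator Zap1 that stays active when zinc is plentiful, were compared with DY1457 cells carrying the empty vector pYef2, both in SD galactose with 1 μM added zinc. LZM is a minimal medium in which EDTA and citrate buffer zinc, and Zap1TC was expressed from the galactose-inducible GAL1 promoter of the plasmid. The paper describes LZM with 3 μM as severely zinc-limiting and LZM with 3000 μM as zinc-replete. It also describes SD, which lacks strong zinc chelators, as zinc-replete, so amounts of added zinc are not comparable between E4 and E3. All cultures were the haploid strain DY1457 (MATα, mutant in ura3, trp1, leu2, his3, can1 and ade6). Each experiment had 2 independent pairs of cultures and 1 spotted 2-colour array per pair, with Cy5 for LZM 3 μM or Zap1TC and Cy3 for LZM 3000 μM or vector.

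The SUN proteins are named after Sim1, Uth1 and Nca3, and share a C-terminal domain related to fungal proteins that act on wall glucan. They are secreted to the cell wall, and Uth1 and Sun4 have also been found at mitochondria. UTH1 was first known from mutants with altered life span and stress resistance, and it has been linked to oxidant sensitivity and mitophagy. SIM1 has been linked to DNA replication control, NCA3 acts with NCA2 in the expression of mitochondrially encoded ATP synthase subunits, and SUN4 is needed for the normal separation of daughter cells at the septum. Zap1 binds zinc-responsive elements in promoters and activates genes for zinc uptake and for growth at low zinc.

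Values are log2 ratios of Cy5 over Cy3 after background correction and loess normalization, so that 1 unit is a 2-fold difference. The arrays gave 10036 and 10295 usable spots in E4, and 11040 to 11303 in E3. The ratios of paired arrays correlated at 0.940 over 5129 genes in E4 and 0.944 over 5780 genes in E3, which is a description across genes. As a check of the labels, the zinc transporter gene ZRT1 was 99.9-fold higher in LZM 3 μM than in LZM 3000 μM and 41.1-fold higher in Zap1TC cells than in vector cells. ZAP1 itself was 101-fold higher in Zap1TC cells and at least 2.8-fold higher in LZM 3 μM, where its Cy3 signal was not well above background on either E4 array. The dyes were not swapped, so a gene's own dye bias and its response cannot be told apart. In bulk RNA, a change in the share of cells at one stage cannot be told apart from a change in RNA per cell.

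All 4 genes were read from 2 spots on every array, and in both channels all 8 spots of each gene were well above background. Across these spots the intensity was 17.3 to 109 times the local background for UTH1, 4.66 to 46.5 times for SIM1, 5.94 to 29.2 times for SUN4 and 1.60 to 3.81 times for NCA3. NCA3 was therefore measured closest to background, with no spot above 3.81 times it. The widest gap between the 2 spots of a gene on 1 array was 0.16 log2 units for UTH1, 0.10 for SIM1, 0.22 for NCA3 and 0.31 for SUN4. The SUN4 gap lay on the second E3 array, where its spots read -0.15 and 0.17 on opposite sides of 0. The brightest spot on any array read 31771, and no spot was flagged. The 4 genes encode a shared domain, and cross-hybridization among their spots was not tested.

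UTH1 was higher in both experiments. Its log2 ratio was 0.63 and 0.54 on the E4 arrays, a mean of 0.59 ± 0.06 (SD, n = 2), or 1.5-fold more mRNA in LZM 3 μM than in LZM 3000 μM (limma, adjusted p = 6.46e-05, 95% confidence interval 0.45 to 0.72). In E3 its log2 ratio was 2.13 and 2.22, a mean of 2.18 ± 0.06 (SD, n = 2), or 4.53-fold more mRNA in Zap1TC cells than in vector cells (limma, adjusted p = 3.39e-09, 95% confidence interval 2.04 to 2.32). The E4 and E3 arrays did not overlap, and the spread within each experiment was small beside the gap between them. Of all genes tested, 246 of 5129 had a higher mean ratio in E4 and 14 of 5780 in E3. UTH1 is one of the candidate Zap1 targets that the study picked with the help of these arrays, so its direction here is not independent evidence of one. The paper also gave other evidence for UTH1. It reported a potential zinc-responsive element in the promoter, and a rise in both conditions by nuclease protection assay of RNA not used for the arrays.

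SIM1 was higher in E3. Its log2 ratio was 0.080 and 0.26 in E4, a mean of 0.17 ± 0.13 (SD, n = 2), or 1.13-fold, which did not pass the test (limma, adjusted p = 0.051, 95% confidence interval 0.025 to 0.32). This interval, like all those given here, is for a single gene and is not adjusted for the number of genes tested. It can therefore lie on 1 side of no change where the adjusted p does not pass. In E3 the ratios were 0.82 and 0.81, a mean of 0.82 with an SD of 0.0022 (n = 2), or 1.76-fold more mRNA in Zap1TC cells than in vector cells (limma, adjusted p = 3.58e-06, 95% confidence interval 0.67 to 0.96). The SD of 2 such close arrays understates the error, and the pooled standard error of the fit was 0.07. In E3, 220 of 5780 genes had a higher mean ratio than SIM1. The E4 value lay close to the threshold, and it was 0.26 without the first E4 array and 0.080 without the second.

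NCA3 was lower in E3, by a small amount. In E4 its log2 ratio was 0.13 and -0.042, a mean of 0.046 ± 0.13 (SD, n = 2), or 1.03-fold, with arrays on both sides of 0 (limma, adjusted p = 0.608, 95% confidence interval -0.11 to 0.20). In E3 the ratios were -0.39 and -0.22, a mean of -0.31 ± 0.12 (SD, n = 2), so NCA3 mRNA was 1.24-fold lower in Zap1TC cells than in vector cells (limma, adjusted p = 0.00378, 95% confidence interval -0.46 to -0.15). Without the first E3 array the ratio was -0.22 and the call was lost, but that fit rests on 1 E3 array. The size also depended on the correction, at -0.47 with plain background subtraction (limma, adjusted p = 0.022).

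SUN4 passed the test in neither experiment. Its log2 ratio was 0.30 and 0.14 in E4, a mean of 0.22 ± 0.11 (SD, n = 2), or 1.17-fold (limma, adjusted p = 0.0616, 95% confidence interval 0.022 to 0.42). In E3 the ratios were -0.37 and 0.011, a mean of -0.18 ± 0.27 (SD, n = 2), the widest spread of any member in either experiment (limma, adjusted p = 0.101, 95% confidence interval -0.38 to 0.015). Both ratios moved with 1 array. The E4 ratio was 0.30 without the second E4 array and 0.14 without the first. In E3 the ratio was -0.37 without the second array and 0.011 without the first. A lone array shows no spread for its own experiment, so no p-value is given for these fits.

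**Figure D1:**
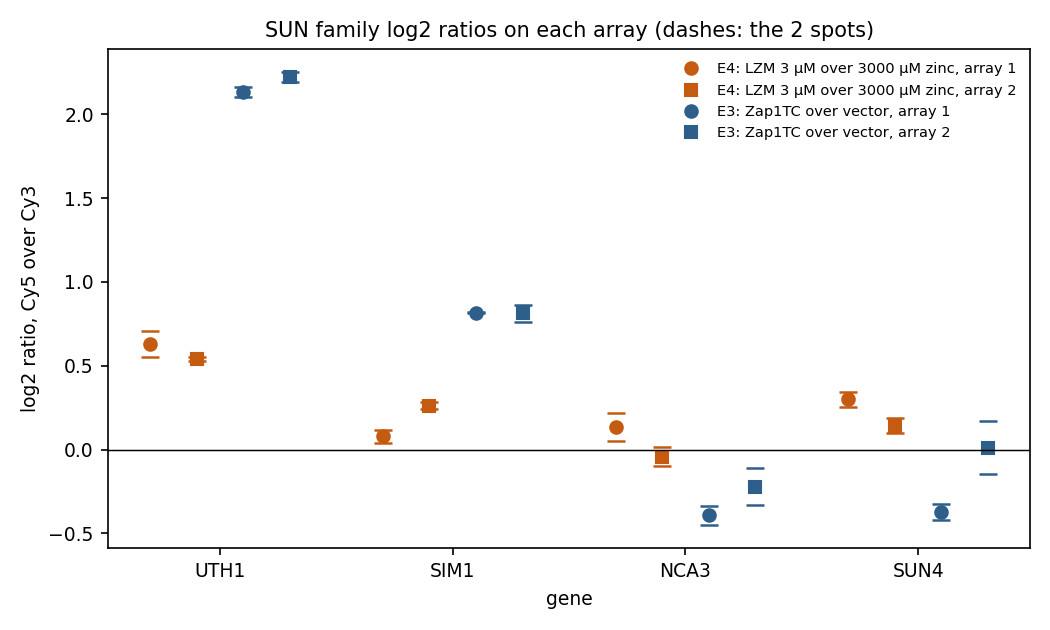
Log2 ratio of Cy5 over Cy3 (vertical axis) for the 4 SUN genes on each of the 4 arrays, with E4 (LZM 3 μM over LZM 3000 μM) left of E3 (Zap1TC over vector), circles and squares for the first and second array and dashes for the 2 spots of each array. UTH1 stands at 0.63 and 0.54 in E4 and at 2.13 and 2.22 in E3, while the SUN4 dashes of the second E3 array lie on both sides of 0.

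Counted together, 1 of the 4 genes was called higher and none lower in E4, against a background of 25.7% of all genes called higher and 24.9% called lower (50.6% either way). In E3, 2 of the 4 were called higher and 1 lower, against a background of 29.3% higher and 29.3% lower (58.6% either way). With the calls this frequent over the array, these counts are not a result about the family. The study's screening rule asks for a mean of at least 1.5-fold with each array at least 1.4-fold. By that rule UTH1 passed in E4, where 4.64% of genes did, and UTH1 and SIM1 passed in E3, where 7.01% did. UTH1 only just passed in E4, with folds of 1.55 and 1.46 and a mean of 1.5011. It missed the mean with plain background subtraction (1.47-fold), with loess within print-tip blocks (1.41-fold) and in the deposited log2 ratios (1.38-fold). SIM1 in E3 passed in those 3 settings also, with means of 1.81-fold, 2.16-fold and 1.52-fold. For UTH1 in E4 the paper itself printed 1.4-fold and 1.5-fold on the 2 arrays. In E3 it printed 3.5-fold and 4.0-fold for UTH1, below the 4.39-fold and 4.66-fold read here.

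The responses of all 4 genes differed between the experiments, in opposite directions within the family. The difference of E4 minus E3 was -1.59 for UTH1 (limma, adjusted p = 2.72e-06, 95% confidence interval -1.79 to -1.40), a 3.02-fold smaller ratio in E4 than in E3. For SIM1 it was -0.64 (limma, adjusted p = 0.000447, 95% confidence interval -0.85 to -0.44). NCA3 and SUN4 differed the other way, by 0.35 (limma, adjusted p = 0.0161, 95% confidence interval 0.13 to 0.58) and by 0.40 (limma, adjusted p = 0.0259, 95% confidence interval 0.12 to 0.69). The background was 26.5% of genes with a higher ratio in E4 and 21.6% with a lower one (48.2% either way), so calls in this contrast were also common. Of the 4992 genes, 19 had a difference further below 0 than that of UTH1 and 278 further below 0 than that of SIM1. The medium, the zinc buffer and the source of Zap1 activity all change between E4 and E3, and their parts in these differences cannot be told apart. The SUN4 difference lost its call without the first E3 array (0.21), and the NCA3 difference without the first E3 array (0.27) or the first E4 array (0.26). In those fits the lone array left was assumed to vary like the pair in the other experiment.

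**Figure D2:**
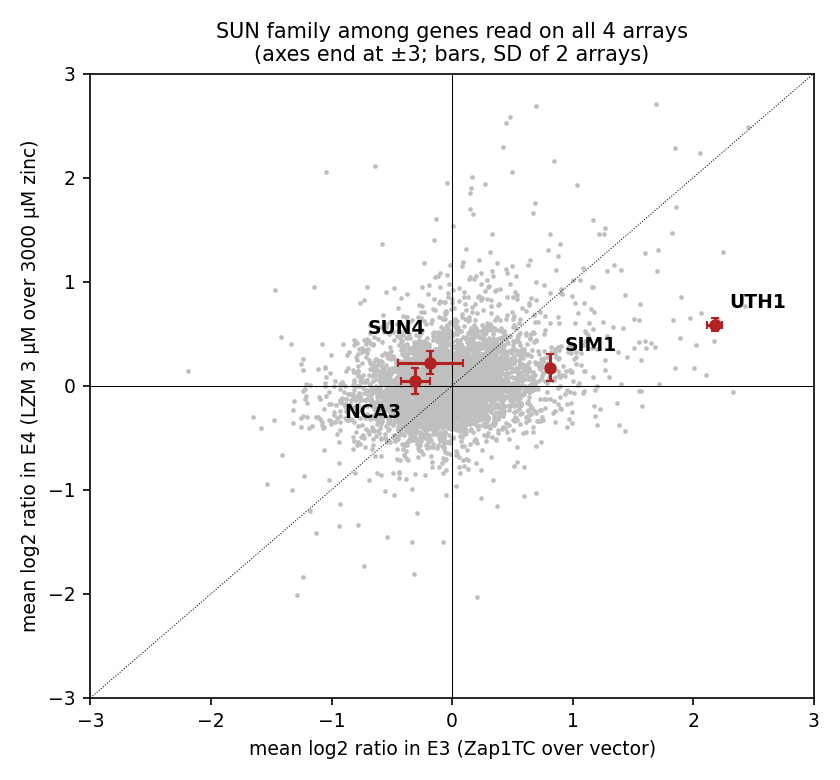
Mean log2 ratio in E4 (vertical axis) against that in E3 (horizontal axis) for the 4992 genes read on all 4 arrays (grey) with the SUN genes in red, bars for the SD of 2 arrays and a dotted line where both ratios are equal. UTH1, at 0.59 in E4 and 2.18 in E3, lies far below the line, SIM1 less far below it, and NCA3 and SUN4 above it, while 10 genes fall outside the axes.

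The 2 channels were also read as separate levels, normalized within and between arrays, which shows where each gene stood in each culture. These levels are log2 intensities, they are compared only within a gene, and they carry no test because arrays and media change together. UTH1 stood at 12.53 ± 0.05 in Zap1TC cells, 10.35 ± 0.11 in vector cells, 11.51 ± 0.22 in LZM 3 μM and 10.93 ± 0.15 in LZM 3000 μM (SD, n = 2 each). Its arrays did not overlap between any of the 4 cultures, and its order was Zap1TC, LZM 3 μM, LZM 3000 μM and vector. Vector cells were thus the lowest for UTH1, 0.58 log2 units below LZM 3000 μM cells, but 45.9% of all genes differed by at least as much between those cultures.

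SIM1 followed another order. It stood at 11.50 ± 0.04 in Zap1TC cells, 10.69 ± 0.04 in vector cells, 8.99 ± 0.03 in LZM 3 μM and 8.82 ± 0.10 in LZM 3000 μM (SD, n = 2 each). Both E3 cultures were above both E4 cultures, and no arrays overlapped between neighbouring cultures in that order. Vector cells exceeded LZM 3000 μM cells by 1.87 log2 units, or 3.66-fold, a gap that 6.21% of genes equalled or passed in either direction. For SIM1 the gap between these cultures was thus wider than its response in either experiment.

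NCA3 and SUN4 varied less. NCA3 stood at 6.84 ± 0.02 in Zap1TC cells, 7.15 ± 0.10 in vector cells, 6.94 ± 0.16 in LZM 3 μM and 6.89 ± 0.04 in LZM 3000 μM (SD, n = 2 each), and its LZM 3 μM arrays overlapped with those of LZM 3000 μM and of Zap1TC cells. SUN4 stood at 9.73 with an SD of 0.0035 in Zap1TC cells, and at 9.91 ± 0.27 in vector cells, 9.40 ± 0.19 in LZM 3 μM and 9.18 ± 0.08 in LZM 3000 μM (SD, n = 2 each). Its Zap1TC arrays lay inside the range of the vector arrays, which stood at 10.10 on the first array and 9.72 on the second after scaling between arrays. Between vector and LZM 3000 μM cells, 72.1% of genes differed by at least as much as NCA3 (0.26) and 36.0% by at least as much as SUN4 (0.73).

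**Figure D3:**
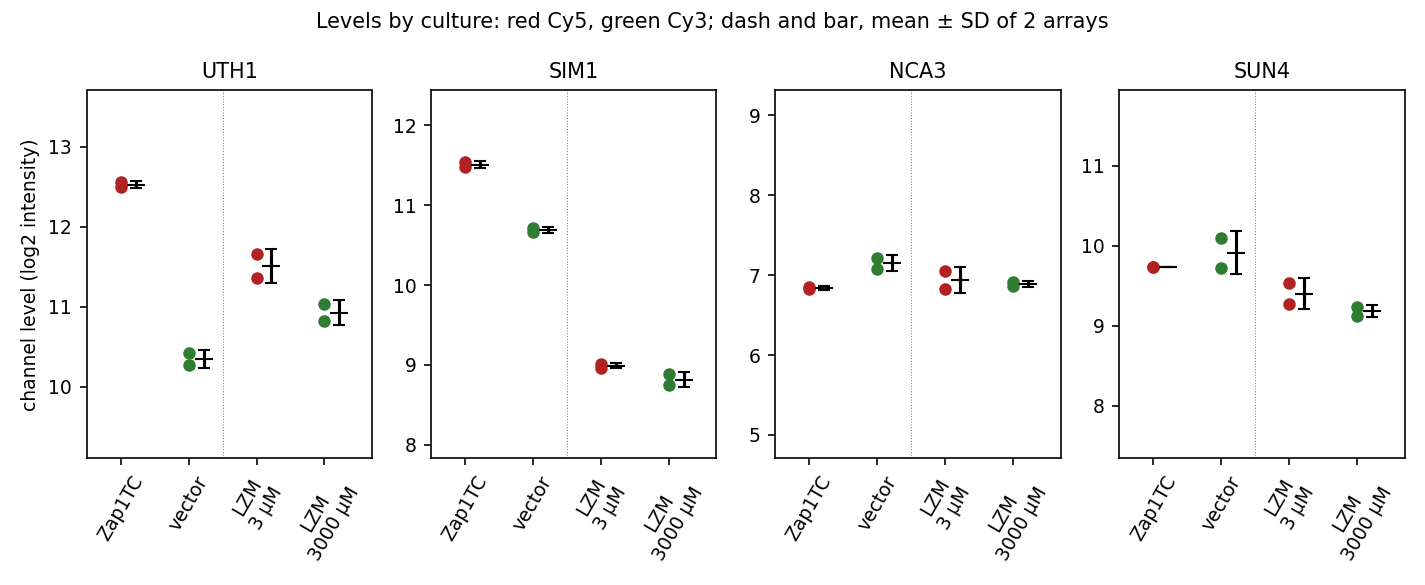
Channel level (log2 intensity, vertical axis, each panel spanning the same range in units) of each SUN gene in the Zap1TC, vector, LZM 3 μM and LZM 3000 μM cultures, with a point per array (Cy5 red, Cy3 green) and the mean ± SD of 2 arrays beside it. UTH1 is lowest in vector cells at 10.35, whereas SIM1 is higher in both E3 cultures (11.50 and 10.69) than in both LZM cultures (8.99 and 8.82).

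The 4 genes also differed from one another when set side by side over the 4 arrays. As a measure of likeness, the Euclidean distance between the log2 ratios of 2 genes on the 4 arrays was used, over genes read on all of them. NCA3 and SUN4 were 0.34 apart, with 12.4% of genes nearer to NCA3 than SUN4 was. The other pairs lay between 1.46 (SIM1 and SUN4) and 3.60 (UTH1 and NCA3), with UTH1 and SIM1 at 2.02. Few genes lay near UTH1, and only 2.86% were nearer to it than SIM1 was. For NCA3 and SUN4 that share was 76.5% and 60.4%. Seen from SIM1, 75.6% of genes were nearer than NCA3 and 63.4% nearer than SUN4. No member was therefore among the 3 genes nearest to another member.

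The 3 genes nearest to UTH1 were PIR3, a covalently bound wall protein, at a distance of 0.20, ENO1, a glycolytic enolase, at 0.28, and SSA3, a heat shock protein of the Hsp70 class, at 0.28. PIR3 had a mean log2 ratio of 0.64 ± 0.18 in E4 and 2.20 ± 0.07 in E3, and ENO1 0.70 ± 0.21 in E4 and 2.06 ± 0.09 in E3 (SD, n = 2 each), each close to the values of UTH1 in both experiments. SSA3 had a ratio of 2.17 ± 0.02 in E3 (SD, n = 2), whereas in E4 its Cy3 signal was not well above background on either array, so no E4 fold is given. ENO1 shares sequence with ENO2 and SSA3 with other SSA genes, and cross-hybridization on these spots was not tested. Like UTH1, ENO1 is a candidate Zap1 target that the study picked with the help of these arrays. PIR3 was picked with the help of the E3 arrays, as a potential target without a detectable zinc-responsive element.

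SIM1 lay nearest to MSI1 (0.13), a chromatin assembly factor subunit, THI11 (0.17), a thiamine synthesis gene with near-identical copies that the spots may not separate, and GND2 (0.18), a dehydrogenase of the pentose phosphate pathway. These 3 had mean E3 ratios of 0.75, 0.88 and 0.85, and none passed limma's test in E4, with adjusted p-values of 0.123, 0.178 and 0.512. NCA3 lay nearest to CFD1 (0.049), which assembles iron-sulfur clusters, CUE1 (0.057), a factor of protein degradation at the endoplasmic reticulum, and YJR056C (0.079). SUN4 lay nearest to VMA2 (0.13), a subunit of the vacuolar proton pump, YCLX09W (0.14) and IBD2 (0.15), a mitotic checkpoint gene. Genes with small ratios are crowded, so short distances around NCA3 and SUN4 separate them from few others.

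Genes of the processes linked to the family were then counted, from 5 lists with 73 genes in all. Over all genes tested, 25.7% were called higher and 24.9% lower in E4, and 29.3% higher and 29.3% lower in E3. The list for wall glucan synthesis and remodelling, the process nearest to the SUN domain, had 13 of its 17 tested genes higher, 2 lower and 2 not called in E4, with a median log2 ratio of 0.40 against -0.00 over all genes. Among those called higher in E4 were GAS4 and GSC2, whose Cy3 signal was not well above background on either E4 array and whose Cy5 signal was on 1. In E3 it had 12 of 18 higher, 4 lower and 2 not called, with a median of 0.44 against 0.00. The highest called gene was EXG1, an exoglucanase, at 1.18 ± 0.09 in E4, and GAS4, a glucanosyltransferase of the spore wall, at 1.60 ± 0.28 in E3 (SD, n = 2 each). The lowest in both was UTR2, which links chitin to glucan, at -1.21 ± 0.08 in E4 and -1.18 ± 0.21 in E3 (SD, n = 2 each). UTH1 stood below EXG1, BGL2 (0.88), FKS1 (0.64) and SCW4 (0.60) of this list in E4, and above every tested gene of it in E3.

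The list for the septum and daughter cell separation, where SUN4 acts, split. In E4, 7 of 12 tested genes were higher, 2 lower and 3 not called, against 25.7% of all genes higher and 24.9% lower, with a median of 0.18. In E3, 3 of 13 were higher, 6 lower and 4 not called, against 29.3% of all genes each way, with a median of 0.11. DSE1, a daughter-specific gene, was the highest called in E4 at 0.66 ± 0.01, and EGT2, a wall protein of cell separation, the highest called in E3 at 0.38 ± 0.18 (SD, n = 2 each). AMN1, which acts in the exit from mitosis and in daughter cell separation, was the lowest called at -0.84 ± 0.22 in E4 and -0.62 ± 0.16 in E3 (SD, n = 2 each). The wall endoglucanase SCW11 belongs to both this list and the glucan list.

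For the expression and assembly of mitochondrial ATP synthase, the process of NCA3, 1 of 11 tested genes was higher, 3 lower and 7 not called in E4, and 1 of 12 was higher, 4 lower and 7 not called in E3. Over all genes, 25.7% were higher and 24.9% lower in E4, and 29.3% each way in E3. The medians of the list were -0.07 in E4 and -0.00 in E3. The F1 assembly chaperone gene ATP11 was the highest called in E4 at 0.18 ± 0.15 and the lowest called in E3 at -0.40 with an SD of 0.0032 (n = 2 each). The lowest called in E4 was ATP12, also a chaperone of F1 assembly, at -0.31 ± 0.09, and the highest called in E3 was NCA2, the partner of NCA3, at 0.20 ± 0.06 (SD, n = 2 each). NCA2 and NCA3 thus lay on opposite sides of 0 in E3, both by small amounts. NCA3, measured close to background, stood at -0.31 there and at -0.22 without the first E3 array.

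For mitophagy, a process that has been linked to UTH1, 3 of 7 tested genes were higher, 3 lower and 1 not called in E4, against 25.7% of all genes higher and 24.9% lower, with a median of 0.12. Among the lower was ATG8, whose Cy5 signal was not well above background on either E4 array. In E3, 7 of 8 were higher and 1 lower, against 29.3% of all genes each way, with a median of 0.42. WHI2, a stress response gene, was the highest called in E4 at 0.59 ± 0.14 and the lowest called in E3 at -0.55 ± 0.06 (SD, n = 2 each). ATG33, an outer mitochondrial membrane protein of mitophagy, was the highest called in E3 at 0.92 ± 0.02, and SNX4, a sorting nexin, the lowest called in E4 at -0.27 ± 0.03 (SD, n = 2 each). UTH1 stood above every tested gene of this list in E3.

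For oxidant defence, 3 of 17 tested genes were higher, 3 lower and 11 not called in E4, and 6 of 18 were higher, 4 lower and 8 not called in E3, with medians of -0.03 in E4 and 0.03 in E3. The shares over all genes were 25.7% higher and 24.9% lower in E4, and 29.3% each way in E3. The peroxiredoxin gene TSA1 was the highest called in both, at 1.11 ± 0.06 in E4 and 1.4 ± 0.27 in E3 (SD, n = 2 each). The lowest called were CCP1, the mitochondrial cytochrome c peroxidase, at -0.43 ± 0.13 in E4 and PRX1, a mitochondrial peroxiredoxin, at -0.46 ± 0.01 in E3 (SD, n = 2 each). TSA1, like UTH1 and like SCW4 of the glucan list, was picked by the study with the help of these arrays. These lists are described by counts and medians alone, and nothing here sets them apart from other genes by a test.

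**Figure D4:**
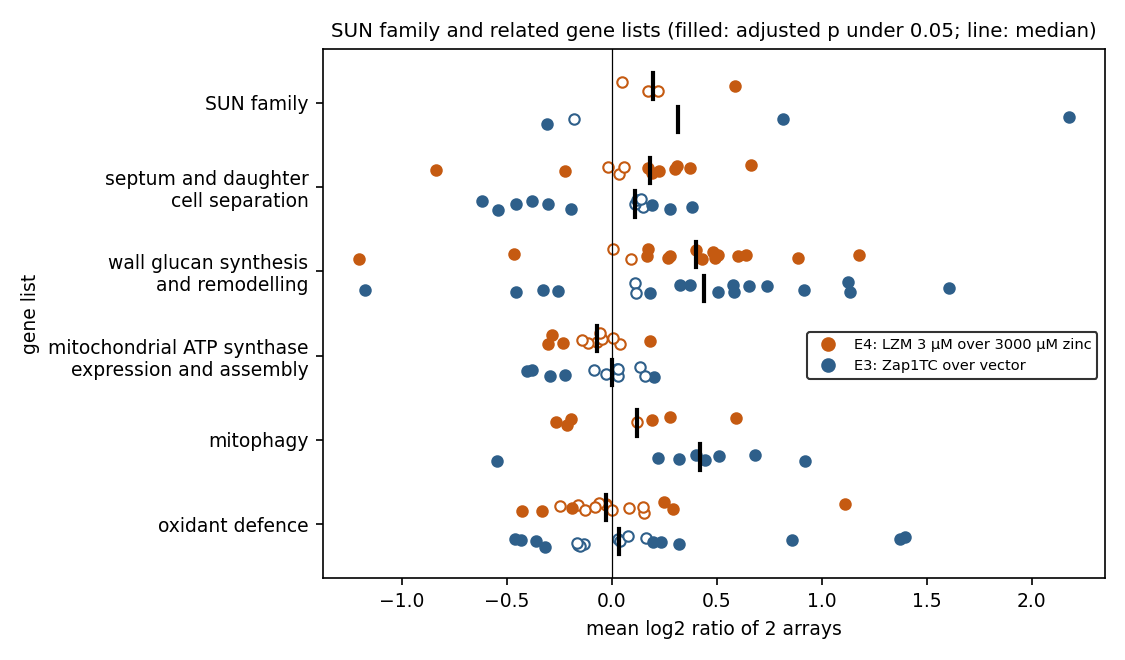
Mean log2 ratio of 2 arrays (horizontal axis) for each tested gene of the SUN family and the 5 related lists (rows), with E4 above E3 in each row, filled points for limma adjusted p under 0.05 and a black line at the median. The wall glucan list has medians of 0.40 in E4 and 0.44 in E3, and UTH1 in E3 lies furthest to the right of all points.

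**Figure D5:**
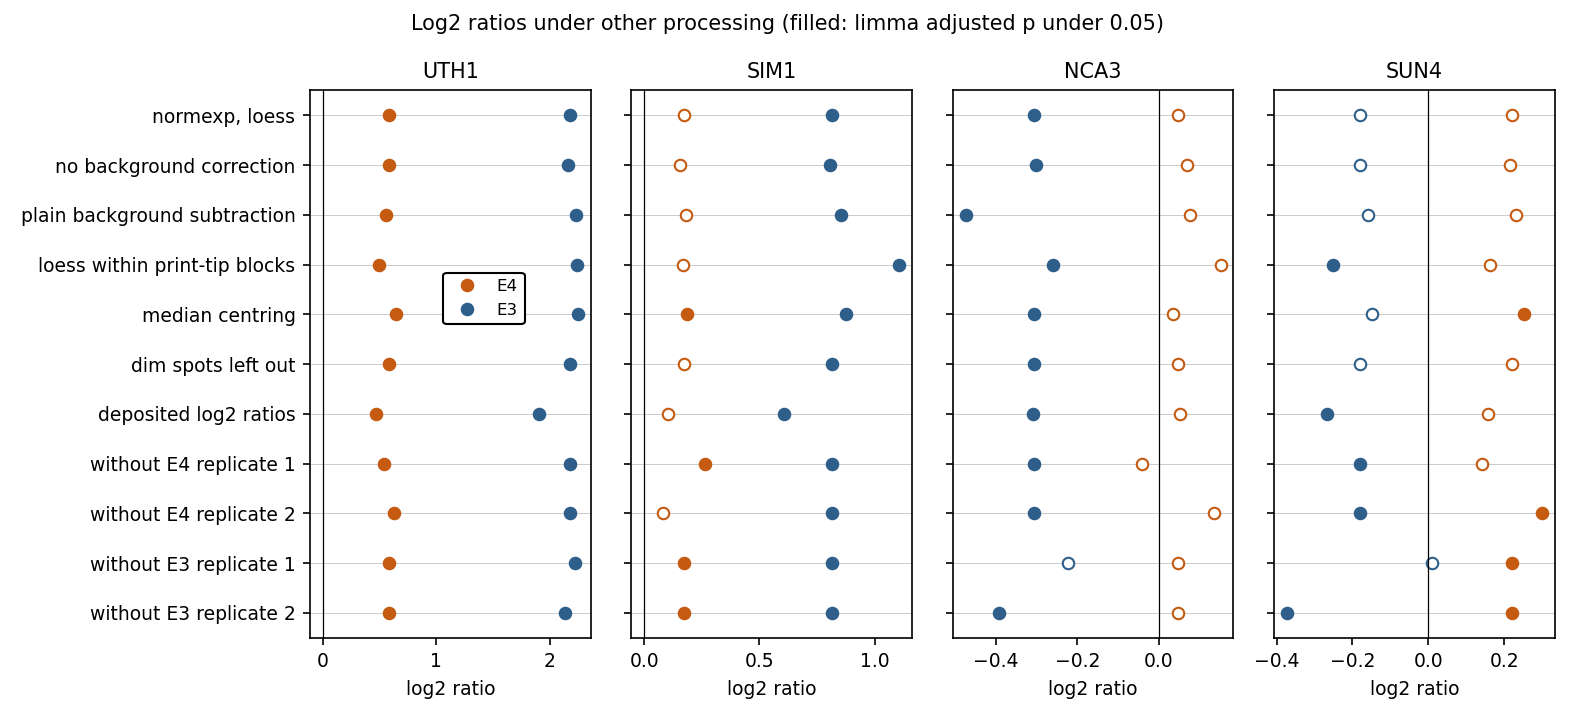
Log2 ratio (horizontal axis, its scale set for each panel) of each SUN gene in E4 and E3 under the settings named at left, filled where limma's adjusted p was under 0.05. Where a replicate is left out, the fill assumes that the lone array varies like the pair in the other experiment. UTH1 stays between 0.47 and 0.65 in E4 and between 1.91 and 2.25 in E3 with every point filled, whereas the SUN4 points in E3 run between -0.37 and 0.011 and only some are filled.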

How the data were processed

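mRNA from 4 culture pairs of DY1457, 2 for E4 and 2 for E3, was labelled and hybridized to spotted whole-genome arrays, 1 slide per pair with 48 blocks of spots. The deposited scanner tables hold Cy5 and Cy3 mean intensities and local background intensities per spot, with no background subtraction. The authors also multiplied the Cy3 intensity by 1 factor per array (1.044 to 1.142) and divided Cy5 by it to give a ratio, which was used here only to check the files. A value table deposited by the authors holds log2 ratios of Cy5 over Cy3, normalized by LOWESS within each slide without background subtraction, and served as an alternative. Its column medians were -0.0201 and -0.0182 in E4, and -0.0211 and -0.0208 in E3. The scale (log2) and direction (Cy5 over Cy3) were read from a comparison with the scanner ratios, where columns correlated at 0.966 and 0.912 in E4 and at 0.992 and 0.986 in E3. 2 footer lines per array were dropped. The scanner software and the genome build were not given in the sources used here, and gene names were updated through a RefSeq table of assembly R64.

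Here, intensities were corrected with normexp (offset 50) and normalized by loess (span 0.3, 4 iterations) array by array (limma 3.58.1, R 4.3.3), and spots for 1 gene were then averaged. The fit (lmFit, eBayes) had 1 coefficient per experiment over all 4 arrays, with two-sided tests and Benjamini-Hochberg adjustment at 0.05 over all genes read on both arrays of an experiment. A spot was well above background if it stood over 2.6 SD (of the backgrounds in its channel) above its own background. For ZAP1 in E4 the lower bound of the fold sets the mean Cy5 level against the mean, per array, of the higher of the lowest level well above background and its own Cy3 level. Separate-channel levels were scaled between arrays on the mean of both channels (Aquantile) over the 4992 genes read on every array. The fit was also run on simulated data with 200 changed genes and no dye bias, which cannot vouch for the calls made here. The number of arrays limits the precision.

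The members, the 5 lists and the rule for named genes were chosen with earlier results of these data known. Named are the 4 members, ZAP1 and ZRT1, the 3 genes nearest to each member, the protein-coding neighbour on each side of each member, and the highest and lowest called gene of each list. Of the genes of the lists, SCW11, BGL2, FKS1, SCW4, GSC2 and ATG8 were named after their values were seen. Alternatives were no background correction, plain subtraction, loess within print-tip blocks, median centring, dim spots left out, the deposited log2 ratios, each replicate left out, each experiment fitted alone, the replicate block, a trended robust prior, and a geometric mean or a 2-fold mean for the study's rule.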

Additional observations from a re-analysis of the deposited data

Results flagged for a closer look

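The log2 ratio of each of the 4 genes differed between E4 and E3 by limma's test of the difference itself. UTH1 differed by -1.59, with 0.59 in E4 and 2.18 in E3, and SIM1 by -0.64, with 0.17 in E4 and 0.82 in E3. NCA3 differed by 0.35, with 0.046 in E4 and -0.31 in E3, and SUN4 by 0.40, with 0.22 in E4 and -0.18 in E3. The differences of NCA3 and SUN4 were less firm, at 0.27 and 0.21 without the first E3 array. That of SUN4 also lost its call with plain subtraction (0.39, adjusted p = 0.137 in limma). The difference was called in this contrast for 48.2% of the 4992 genes read on all 4 arrays, and medium and Zap1TC cannot be told apart in it.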

How the results depend on the processing

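Each experiment has 2 arrays with 1 dye orientation, and each array is its own slide, so neither dye nor slide could be fitted. Of 240 values recomputed under other settings, 209 kept their direction and their side of the threshold, or a count within 1.5 times. UTH1 in E4 (0.47 to 0.65) and in E3 (1.91 to 2.25), SIM1 in E3 (0.61 to 1.11) and the E4 minus E3 differences of UTH1 (-1.74 to -1.44) and SIM1 (-0.94 to -0.50) kept direction and call in every setting run. The causes of the changes below were not tested, other than fewer arrays where a replicate was left out. There the lone array left in an experiment was assumed to vary like the pair in the other.

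SIM1 in E4 passed limma's test with median centring (0.19, adjusted p = 0.0478) and with the 2 arrays alone (0.17, adjusted p = 0.0436), and ran from 0.080 to 0.26 with a replicate left out. SUN4 in E4 passed with median centring (0.25, adjusted p = 0.0447), with the 2 arrays alone (0.22, adjusted p = 0.0125) and with the replicate block (0.22, adjusted p = 0.0324), and ran from 0.14 to 0.30 with a replicate left out. SUN4 in E3 passed with loess within print-tip blocks (-0.25, adjusted p = 0.0438), in the deposited log2 ratios (-0.27, adjusted p = 0.0365) and with the 2 arrays alone (-0.18, adjusted p = 0.045), and ran from -0.37 to 0.011 with a replicate left out, turning direction without the first E3 array. With a replicate left out, NCA3 ran from -0.042 to 0.13 in E4, turning direction without the first E4 array, and from -0.39 to -0.22 in E3. Over every setting run, NCA3 reached 0.15 in E4 (loess within print-tip blocks) and -0.47 in E3 (plain subtraction). The NCA3 difference ran from 0.26 to 0.44 and the SUN4 difference from 0.21 to 0.59 with a replicate left out, and the SUN4 difference lost its call with plain subtraction (0.39, adjusted p = 0.137). Leaving out either array of the other experiment gave SIM1 in E4, SUN4 in E4 and SUN4 in E3 the values of the 2 arrays alone.

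Genes passing the study's rule numbered 238 in E4 and 405 in E3. They were 536 in E4 and 816 in E3 with plain subtraction, 85 in E4 and 142 in E3 with a 2-fold mean, and 157 in E4 in the deposited log2 ratios. With a replicate left out, genes called lower in E4 ran from 803 to 1377 (1276 with all arrays), and genes called higher in E3 from 1061 to 1728 (1692 with all arrays).

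Replicate numbers are shared between E4 and E3, but same-numbered arrays did not deviate together (correlation -0.07 over 4992 genes). The replicate block gave 1295 genes higher and 1233 lower in E4, 1365 higher and 1619 lower in E3, and 2434 in the difference, where 2404 were called without it. It changed no call of a member other than that of SUN4 in E4.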

Other observations

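The genes that neighbour the SUN family on the chromosomes, by the order in assembly R64, differed in sign from their members in several cases. SHB17, a sugar bisphosphatase gene beside UTH1, had a log2 ratio of 0.42 ± 0.05 in E4 (limma, adjusted p = 0.000485) and -0.26 ± 0.08 in E3 (adjusted p = 0.00516), against 0.59 in E4 and 2.18 in E3 for UTH1 (SD, n = 2 each). YKR041W, on the other side of UTH1, was not read on both E4 arrays and stood at -0.11 ± 0.01 in E3 (SD, n = 2), which did not pass the test (limma, adjusted p = 0.15).

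Beside SIM1, the lipid reductase gene AYR1 stood at 0.02 ± 0.14 in E4 and -0.30 ± 0.03 in E3, and POG1 at -0.05 ± 0.01 in E4 and -0.41 ± 0.15 in E3 (SD, n = 2 each). Both fell in E3 (limma, adjusted p = 0.00354 for AYR1 and 0.00047 for POG1), where SIM1 was higher at 0.82.

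Beside NCA3, PHO86, which helps the export of a phosphate transporter to the cell surface, fell in both experiments, by 0.50 in E4 and by 0.46 in E3 on the log2 scale (limma, adjusted p = 0.000175 in E4 and 0.000144 in E3). The histone chaperone gene ASF1, on the other side, fell by 0.59 in E4 (limma, adjusted p = 9.67e-05) and stood at -0.16 ± 0.13 in E3 (SD, n = 2; adjusted p = 0.0609). NCA3 itself was at 0.046 in E4.

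Beside SUN4, RPL9B, a ribosomal protein gene with the near-identical copy RPL9A, stood at 0.04 ± 0.04 in E4 and fell by 0.71 in E3 (limma, adjusted p = 5.52e-06). AQR1, a plasma membrane transporter gene, stood at 0.31 ± 0.15 in E4 (limma, adjusted p = 0.00819) and -0.36 ± 0.16 in E3 (SD, n = 2 each; adjusted p = 0.00256). The signs of both RPL9B and AQR1 in E4 and E3 were those of the SUN4 means. SUN4 itself passed the test in neither experiment, and RPL9B did not pass it in E4 (limma, adjusted p = 0.604).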
